A study of Mus musculus with 36 samples.

Results

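Tnf, Osm, Il10 and Ebi3, 4 cytokine genes of white blood cells, were followed across week, dose and arm in blood RNA of Townes sickle cell mice. They are 4 of the 16812 genes in the deposited count table, for each of which the transcript row with most counts was kept. The genes were picked by name with earlier results of these libraries known, on week 2 against week 0 in each arm and on the arms at week 0. For those contrasts, and for the other contrasts between weeks, which share libraries with them, the values of the 4 genes are given as a description without a test.

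The mice are humanised, with human globin genes in place of their own. They received MIR29B, a cholesterol-modified microRNA, or a scrambled control, delivered by mini-osmotic pump at a dose of 2 or 3 mg/kg, and blood was sampled at weeks 0, 2 and 4. The 12 groups were MIR29B at 2 mg/kg, MIR29B at 3 mg/kg, scrambled at 2 mg/kg and scrambled at 3 mg/kg, each at 3 weeks, with 3 libraries a group and 36 in all. All groups share the Townes sickle cell background and globin depletion of the RNA, and no group of untreated mice or of mice without sickle cell disease was analysed here. The labels give no age, do not tie libraries of different weeks to the same animals and do not say whether week 0 blood preceded dosing, so MIR29B at week 0 names the arm and not an exposure.

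TNF is a trimeric cytokine of activated macrophages, monocytes and T cells. It is shed from the membrane by the protease ADAM17 and signals through TNFR1 and TNFR2 to NF-kappa-B. Oncostatin M, the product of Osm, belongs to the interleukin-6 family, is made by neutrophils and macrophages among other cells, and signals through receptors built on gp130. Interleukin-10 dampens inflammatory cytokine production through the IL-10 receptor and STAT3. EBI3 is a soluble receptor-like subunit that forms interleukin-27 with p28 and interleukin-35 with the p35 chain of interleukin-12.

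Library totals ran between 10.7 and 45.65 M counts, with a median of 29.12 M. Levels are given as TMM-scaled CPM, counts scaled to a common library size with an adjustment for composition. All count values in the table were even. Ribosomal RNA took 1.39% to 15.05% of the counts and exceeded 5% in 3 libraries, namely replicates 2 and 3 of MIR29B at 2 mg/kg at week 2 and replicate 1 of scrambled at 2 mg/kg at week 0. The labelled cell type is erythrocytes. The red cell gene Alas2 stood at 58900 to 149000 CPM, and markers of white cells were also counted in every library, among them S100a8 of neutrophils, Csf1r of monocytes, Cd79a of B cells and Cd3e of T cells. The natural killer cell marker Ncr1 was at 0 in 3 libraries and the dendritic cell marker Xcr1 in 13. In bulk blood, fewer cells of a type and less RNA per cell cannot be told apart.

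All 4 members passed the filter on low counts. Their row totals over the 36 libraries were 1876 counts for Tnf, 6512 for Osm, 554 for Il10 and 1194 for Ebi3, so that Osm had the deepest counts and Il10 the shallowest. Il10 passed through libraries of the scrambled arm, where most of its counts lay. In GRCm38, Tnf lies on the minus strand at chr17:35199381-35202007, Osm on the plus strand at chr11:4236420-4241026, Il10 on the plus strand at chr1:131019845-131024974 and Ebi3 on the plus strand at chr17:55952640-55957022. The gene intervals are those of the GENCODE annotation, and counts over the exons of 1 transcript stand for each gene.

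The sequences that bear on dosing with a miR-29b molecule and on the turnover of cytokine mRNA are shown next. The first is the mouse mature miR-29b of RefSeq (GRCm38.p6), which lies at chr1:195037091-195037113 on the plus strand and at chr6:31063025-31063047 on the minus strand. Its seed, bases 2 to 8, is in capitals. The exact sequence and chemistry of the dosed molecule were not used here. The other 2 are the densest AU-rich stretches in the 3′ UTRs of Tnf and Osm, with each ATTTA pentamer in capitals.
mmu-miR-29b-3p: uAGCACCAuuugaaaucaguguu
Tnf AU-rich stretch: ATTTAttATTTATTTAttATTTATTTA
Osm AU-rich stretch: ATTTAtaaggcctATTTA

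The miR-29 8-mer TGGTGCTA, and the 7-mers TGGTGCT and GGTGCTA, were searched on the transcript strand of the 3′ UTRs of the 4 members. None of the 3 occurred in any of them, and both 7-mers are contained in the 8-mer. Over 15117 mouse genes with an annotated 3′ UTR, the 8-mer was present in 3.3%, TGGTGCT in 15.92% and GGTGCTA in 7.94%. These shares are for the longest 3′ UTR of each gene, while each member was searched in the transcript that stands for it. The members' 3′ UTRs were 764 bases long for Tnf, 1017 for Osm, 706 for Il10 and 245 for Ebi3.

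The pentamer ATTTA, the core of AU-rich elements that bind mRNA decay factors, occurred 8 times in the 3′ UTR of Tnf, 6 times in Osm, 6 times in Il10 and 1 time in Ebi3. At least 1 copy was present in 67.82% of all genes, again in the longest 3′ UTR of each. The longer TTATTTATT, which overlaps the pentamer, occurred 5 times in Tnf and was absent from the other members, and 7.53% of all genes had it.

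Tnf was higher at week 2 than at week 0 in both arms and intermediate at week 4. At week 0 its level had a minimum of 0, a median of 0.25 and a maximum of 1.43 CPM in MIR29B libraries, against 0, 0.48 and 1.11 CPM in scrambled libraries. At week 2 the same 3 values were 3.61, 5.69 and 7.48 CPM in MIR29B libraries, against 2.22, 4.41 and 9.87 CPM in scrambled libraries. At week 4 they were 1.34, 2.82 and 3.26 CPM in MIR29B libraries, against 0.505, 1.42 and 4.25 CPM in scrambled libraries.

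Every week 2 library of an arm had more Tnf than every week 0 library of that arm, a pattern shared by 3.14% of the 11953 tested genes in the MIR29B arm and by 0.502% in the scrambled arm. The log2 fold change of week 2 over week 0 was 3.55 ± 0.60 (SE) in the MIR29B arm and 3.25 ± 0.58 in the scrambled arm. In the MIR29B arm it was 4.33 without replicate 2 at 2 mg/kg and 4.39 without replicate 1 at 3 mg/kg of week 0, the libraries with most Tnf at that week. In the MIR29B arm every week 4 library was below every week 2 library, which held for 1.05% of tested genes, and week 4 over week 2 was -1.08 ± 0.51. In the scrambled arm week 4 over week 2 was -1.62 ± 0.53 and the libraries overlapped. Week 4 over week 0 was 2.47 ± 0.59 in the MIR29B arm and 1.63 ± 0.57 in the scrambled arm.

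Between the arms, Tnf did not pass the test at week 2 or week 4. It averaged 5.55 ± 1.77 CPM in MIR29B and 5.48 ± 3.41 CPM in scrambled libraries at week 2 (SD, n = 6 each), a log2 difference of 0.18 ± 0.51 with an edgeR adjusted p of 0.948. At week 4 the averages were 2.62 ± 0.691 CPM in MIR29B and 1.89 ± 1.47 CPM in scrambled libraries, a log2 difference of 0.72 ± 0.53 with an edgeR adjusted p of 1.0. By dose, the log2 difference between arms at week 2 was 1.01 ± 0.73 at 2 mg/kg and -0.65 ± 0.72 at 3 mg/kg. At week 4 it was 1.69 ± 0.77 at 2 mg/kg (unadjusted p 0.0347, edgeR adjusted p 1) and -0.25 ± 0.73 at 3 mg/kg. The signs were reversed at week 0, with -0.90 ± 0.91 at 2 mg/kg and 0.66 ± 0.84 at 3 mg/kg, given without a test. Dependence of the Tnf difference on dose was not tested.

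In the scrambled arm the mean of Tnf was higher at 3 than at 2 mg/kg at weeks 2 and 4, with overlapping libraries at week 2. At week 2 the scrambled libraries at 3 mg/kg had 4.4, 9.56 and 9.87 CPM, against 2.22, 2.41 and 4.42 CPM at 2 mg/kg. At week 4 they had 4.25, 3.07 and 1.5 CPM at 3 mg/kg, against 1.33, 0.505 and 0.685 CPM at 2 mg/kg. Every library at 3 mg/kg was above every library at 2 mg/kg at week 4, as for 3.56% of all tested genes. The log2 difference of 3 over 2 mg/kg was 1.40 ± 0.73 at week 2 (edgeR adjusted p 0.431) and 1.80 ± 0.77 at week 4 (edgeR adjusted p 1.0), and neither passed the test. In the MIR29B arm it was -0.26 ± 0.72 at week 2 and -0.13 ± 0.73 at week 4.

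**Figure D1:**
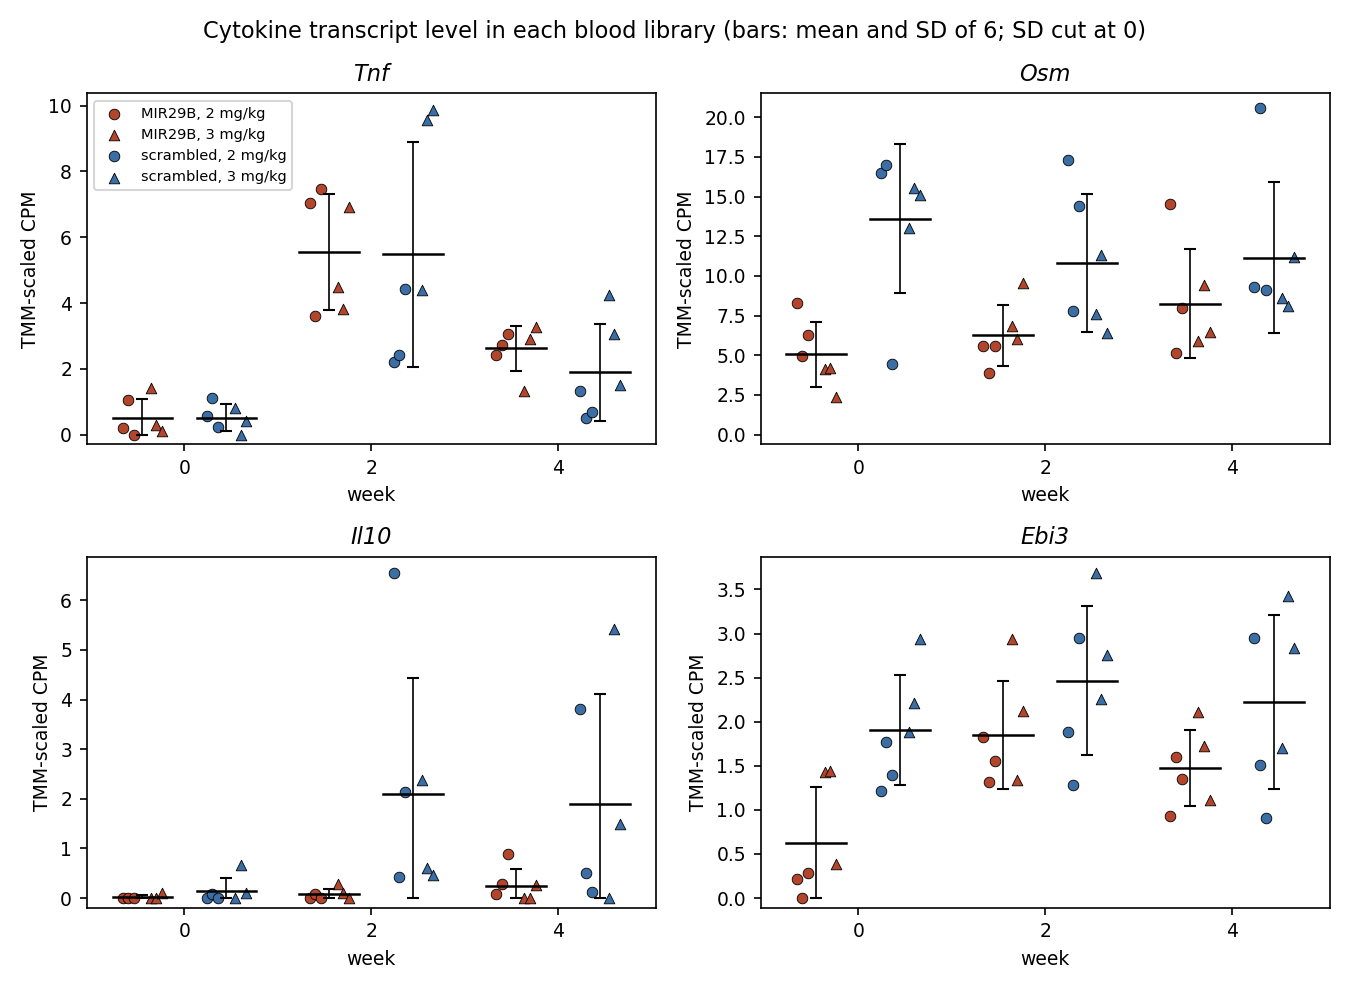
Level of each cytokine transcript in every library, in TMM-scaled CPM, by week, with MIR29B in red and scrambled in blue, circles for 2 mg/kg and triangles for 3 mg/kg, and bars for the mean and SD of 6 libraries. Tnf is highest at week 2 in both arms, and at week 2 every MIR29B library has less Il10 than every scrambled library, whose lowest value is 0.426 CPM. The Il10 gap rests on few counts.

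Il10 had fewer counts in the MIR29B arm than in the scrambled arm at each week. At week 0 it had 2 counts in 1 of 6 MIR29B libraries and 16 counts in 3 of 6 scrambled libraries. At week 2 it had 8 counts in 3 of 6 MIR29B libraries and 324 counts in 6 of 6 scrambled libraries. At week 4 it had 34 counts in 4 of 6 MIR29B libraries and 170 counts in 5 of 6 scrambled libraries. The ratio of pooled Il10 CPM at week 0, MIR29B over scrambled, was 0.128 and rests on these 2 and 16 counts. The fitted log2 difference at week 0 was -2.69 ± 1.84, given without a test.

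By library at week 2, Il10 stood at 0, 0.0821 and 0 CPM with MIR29B at 2 mg/kg and at 0.28, 0.0955 and 0 CPM with MIR29B at 3 mg/kg. The scrambled libraries at week 2 had 6.55, 0.426 and 2.13 CPM at 2 mg/kg and 2.38, 0.597 and 0.459 CPM at 3 mg/kg. All MIR29B libraries lay below all scrambled libraries, as they did for 14 of the 11953 tested genes, or 0.117%. Il10 is among the tested genes through the scrambled libraries, where it is high, so this share gives no support to a difference. The gap rests on few counts, since the highest MIR29B library had 4 counts and the scrambled library with the fewest also had 4.

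The ratio of pooled Il10 CPM, MIR29B over scrambled, was 0.026 at week 2, with an exact 95% interval of 0.00701 to 0.068 when every 2 counts are taken as 1 read pair. The interval covers counting error only and not the spread between libraries. The edgeR model gave a log2 difference of -4.74 ± 1.19 at week 2. The adjusted p was 0.156, so Il10 did not pass the threshold of 0.05. Il10 passed the filter on low counts through scrambled libraries, where it is high, so the fitted values give no support to a difference. With no filter on low counts the log2 difference was -4.70 and the adjusted p was 4.64e-05, and over the other alternatives that gave one the adjusted p ran between 0.0639 and 0.84. Fitted fold changes of Il10 depend on the small count added by the model where a group is near 0. Without replicate 2 of MIR29B at 2 mg/kg, the group's only library with Il10 counts at week 2, the fitted difference was -5.98.

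At week 4 Il10 was at 0.0777, 0.282 and 0.898 CPM with MIR29B at 2 mg/kg and at 0, 0 and 0.258 CPM at 3 mg/kg. The scrambled libraries at week 4 had 3.81, 0.505 and 0.114 CPM at 2 mg/kg and 0, 5.41 and 1.5 CPM at 3 mg/kg. The arms overlapped at week 4, with 1 scrambled library at 0 and 3 above 1 CPM. The ratio of pooled CPM, MIR29B over scrambled, was 0.151 (exact 95% interval 0.084 to 0.256). This interval too covers counting error only and not the spread between libraries. Of the 170 scrambled counts, 80 lay in replicate 1 at 2 mg/kg and 60 in replicate 2 at 3 mg/kg. The edgeR log2 difference was -3.19 ± 1.05 with an adjusted p of 1.0. Leaving out single libraries moved it between -5.13, without replicate 3 of MIR29B at 3 mg/kg, and -2.08, without replicate 1 of scrambled at 2 mg/kg.

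Across weeks, the pooled Il10 level of the scrambled arm at week 2 was 19.9 times that at week 0, given without a test. Of its 324 counts at week 2, 230 lay in replicate 1 at 2 mg/kg. Of its 16 counts at week 0, 12 lay in replicate 2 at 3 mg/kg. In the MIR29B arm the week 2 over week 0 ratio was 4.04, which rests on 8 and 2 counts. The week 4 over week 0 ratio of that arm was 14 and rests on 34 and 2 counts. Replicate 3 at 2 mg/kg held 20 of those 34. The fitted week 4 over week 2 change of Il10 was 1.51 ± 1.25 in the MIR29B arm and -0.04 ± 0.93 in the scrambled arm, a difference between arms of 1.55 ± 1.53 with an edgeR adjusted p of 1.0. Without replicate 3 of MIR29B at 3 mg/kg at week 4 that difference turned to -0.40.

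Between doses, the edgeR log2 difference of Il10, 3 over 2 mg/kg, was 1.87 ± 1.94 at week 2 and -2.15 ± 1.55 at week 4 in the MIR29B arm. In the scrambled arm it was -1.40 ± 1.32 at week 2 and 0.62 ± 1.31 at week 4. Of all tested genes, 0.0418% were called between the scrambled doses at week 2 and 0.0% in the other 3 contrasts of doses. None of the 4 values of Il10 passed the test, and the last one turned to -1.01 without replicate 2 of scrambled at 3 mg/kg.

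Osm was the member with the highest level per length of transcript in 5 of the 6 combinations of arm and week. At week 0 its lowest, median and highest values were 2.39, 4.6 and 8.29 CPM in MIR29B libraries, against 4.43, 15.3 and 17 CPM in scrambled libraries. At week 2 they were 3.86, 5.81 and 9.57 CPM in MIR29B libraries, against 6.43, 9.58 and 17.3 CPM in scrambled libraries. At week 4 they were 5.17, 7.22 and 14.5 CPM in MIR29B libraries, against 8.12, 9.23 and 20.6 CPM in scrambled libraries.

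The MIR29B median of Osm was the lower one at each week, with overlapping libraries at each. At week 0, 1 scrambled library, replicate 3 at 2 mg/kg, lay within the range of the MIR29B libraries, and the other 5 lay above it. The log2 difference, MIR29B over scrambled, was -1.48 ± 0.31 at week 0, a contrast known when Osm was chosen. At week 2 it was -0.79 ± 0.31 (unadjusted p 0.0144, adjusted p 0.377), and at week 4 it was -0.43 ± 0.31 with an adjusted p of 1.0, so that Osm did not pass the edgeR test at either week.

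By dose at week 2, Osm had 5.56, 3.86 and 5.61 CPM with MIR29B at 2 mg/kg, against 17.3, 7.8 and 14.4 CPM with scrambled at 2 mg/kg. At 3 mg/kg it had 6.86, 6.02 and 9.57 CPM with MIR29B, against 7.6, 11.3 and 6.43 CPM with scrambled. At 2 mg/kg every MIR29B library was below every scrambled library, as for 4.77% of all tested genes, and at 3 mg/kg the arms overlapped. The log2 differences were -1.40 ± 0.44 at 2 mg/kg and -0.19 ± 0.43 at 3 mg/kg, with edgeR adjusted p of 0.367 and 0.97. Whether the difference between arms depends on the dose was not tested.

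Over the weeks, Osm had smaller log2 changes than Tnf in both arms. Week 2 over week 0 was 0.33 ± 0.31 in the MIR29B arm and -0.36 ± 0.30 in the scrambled arm on the log2 scale. Week 4 over week 0 was 0.75 ± 0.31 in the MIR29B arm and -0.30 ± 0.30 in the scrambled arm. The difference between arms in week 4 over week 2 was 0.37 ± 0.43, with an edgeR adjusted p of 1.0.

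Ebi3 was lowest in the MIR29B libraries of week 0. There it had 0.213, 0 and 0.279 CPM at 2 mg/kg and 1.43, 1.44 and 0.382 CPM at 3 mg/kg. The scrambled libraries of week 0 had 1.22, 1.77 and 1.4 CPM at 2 mg/kg and 1.88, 2.22 and 2.94 CPM at 3 mg/kg. Within each dose the MIR29B libraries were all below the scrambled ones, a pattern shared by 5.91% of all tested genes at 2 mg/kg and by 6.7% at 3 mg/kg. With doses pooled the arms overlapped. With the doses averaged the log2 difference at week 0, MIR29B over scrambled, was -2.02 ± 0.42, again a contrast known when Ebi3 was chosen.

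At week 2 Ebi3 averaged 1.85 ± 0.616 CPM in MIR29B and 2.47 ± 0.849 CPM in scrambled libraries (SD, n = 6 each). At week 4 it averaged 1.47 ± 0.43 CPM in MIR29B and 2.22 ± 0.985 CPM in scrambled libraries. The arms overlapped at both weeks, and the log2 differences of -0.41 ± 0.37 at week 2 (edgeR adjusted p 0.766) and -0.57 ± 0.37 at week 4 (edgeR adjusted p 1.0) did not pass the test. Week 2 over week 0 was 2.00 ± 0.42 in the MIR29B arm and 0.38 ± 0.37 in the scrambled arm.

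Between doses, the edgeR log2 difference of Ebi3, 3 over 2 mg/kg, lay between 0.36 and 0.55 in each arm at weeks 2 and 4, and that of Osm between -0.63 and 0.58. None of these 8 values passed the test, with SE of 0.43 to 0.52.

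**Figure D2:**
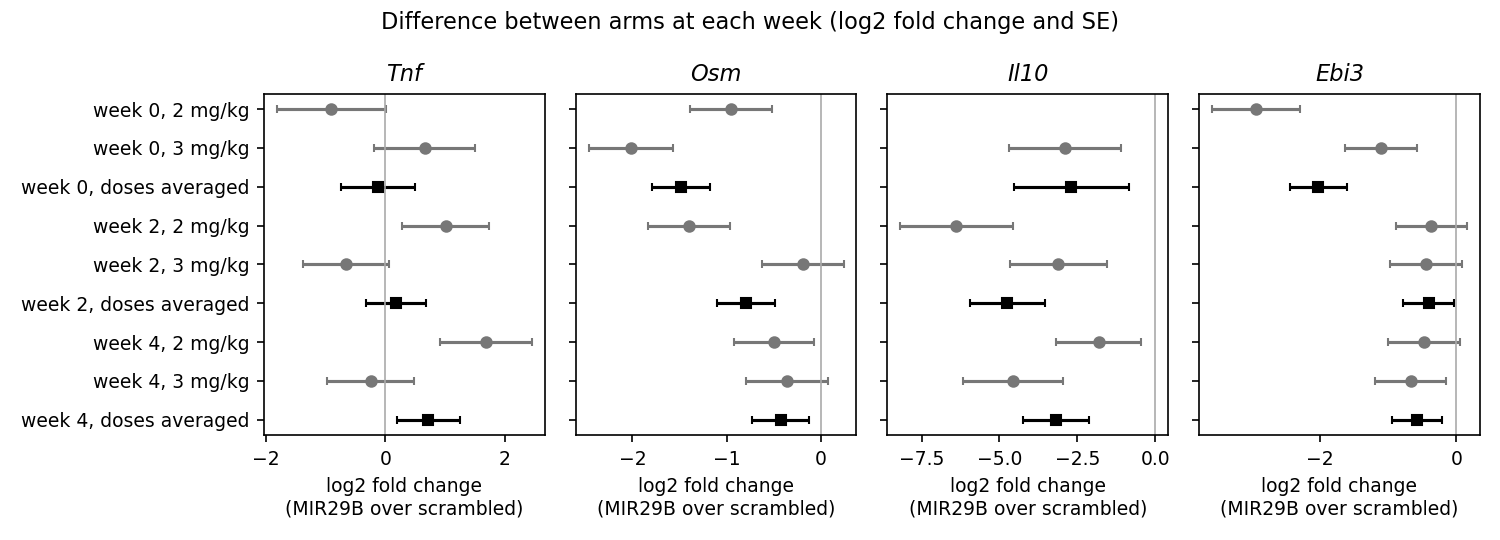
Log2 fold change of MIR29B over scrambled for each cytokine at each week, with its SE, by dose (grey circles) and with doses averaged (black squares). Il10 with doses averaged was at -4.74 at week 2 and -3.19 at week 4, Osm was below 0 at each week, and Tnf changed sign between doses. The Tnf signs at week 0 were the reverse of those at weeks 2 and 4, and dependence on dose was not tested. Il10 at week 0 and 2 mg/kg has no point because both groups had fewer than 3 counts.

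No gene of the 11953 tested passed the edgeR threshold between the arms at week 2 or week 4 with doses averaged, a share of 0.0% at each. At an unadjusted p under 0.05 there were 1175 genes at week 2 and 315 at week 4. DESeq2 called 76 genes at week 2, and gave Il10 no adjusted p there. Per kilobase of transcript, the order of the mean levels at week 2 was Tnf 3.39, Osm 2.75, Ebi3 1.6 and Il10 0.0582 CPM per kb in the MIR29B arm, and Osm 4.76, Tnf 3.34, Ebi3 2.14 and Il10 1.59 CPM per kb in the scrambled arm. Neighbours in that order differed by less than the larger of their SDs, apart from Osm against Ebi3 and Ebi3 against Il10 in the MIR29B arm.

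The 6 lists of pathway and cytokine genes held 116 genes, of which 91 could be tested. At week 2 against week 0, 14 of them rose and 1 fell in the MIR29B arm, while 4 rose and 2 fell in the scrambled arm. The called share was 16.5% of these genes in the MIR29B arm and 6.59% in the scrambled arm, where 5.44% and 3.21% of all tested genes were called. Between the arms no list gene was called at week 0, 2 or 4, and none was called for a difference between arms in the week 2 over week 0 change. The lists were set with earlier results of these libraries known, so these counts are no independent evidence about the pathways. The 15 calls of the MIR29B arm became 9 without replicate 3 of MIR29B at 3 mg/kg at week 0. The 6 of the scrambled arm ran between 0 and 10 with single libraries left out, and were 0 without replicate 3 at 2 mg/kg or replicate 1 or 2 at 3 mg/kg of week 0, or replicate 3 at 2 mg/kg of week 2.

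Among the TNF pathway genes, 4 of 22 rose in the MIR29B arm and 0 fell, with a median log2 change of -0.19 over the list and -0.05 over all genes. The share of all genes that rose was 3.45%. Tnfaip3, which encodes the NF-kappa-B feedback inhibitor A20, rose by 2.20 ± 0.41 (edgeR adjusted p 0.0014) and averaged 80.2 CPM at week 2, against 17.3 CPM at week 0. Rhbdf2, whose product iRhom2 carries ADAM17 to the cell surface, rose by 1.13 ± 0.29, Tnip1, a partner of A20, by 1.10 ± 0.28 and the receptor gene Tnfrsf1a by 1.14 ± 0.32. In the scrambled arm 1 of 22 rose, Rhbdf2 by 1.01 ± 0.28 (edgeR adjusted p 0.0425), where 2.11% of all genes rose, and Tnfaip3 was at 0.70 ± 0.39 without passing.

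The second receptor gene Tnfrsf1b was at 0.23 ± 0.30 in the MIR29B arm and 0.48 ± 0.30 in the scrambled arm. The sheddase gene Adam17 was at -0.52 ± 0.39 in the MIR29B arm and -0.11 ± 0.38 in the scrambled arm, and Birc2, a ubiquitin ligase of the TNF receptor complex, at -0.80 ± 0.27 in the MIR29B arm. None of these passed the edgeR test. Of the genes beside Tnf, the interval of Lta lies 1157 bases and that of Ltb 3060 bases away. Lymphotoxin alpha was at -0.67 ± 1.05 in the MIR29B arm and -0.35 ± 1.08 in the scrambled arm, and lymphotoxin beta at -0.19 ± 0.27 in the MIR29B arm and 0.22 ± 0.27 in the scrambled arm, so neither passed the test in the contrast in which Tnf was chosen.

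Among the OSM and gp130 genes, 3 of 17 tested rose in the MIR29B arm (all genes: 3.45%), 0 fell, and the median was 0.32. They were the feedback inhibitors Socs3 (1.84 ± 0.41) and Cish (2.05 ± 0.52) and the STAT-induced kinase gene Pim1 (1.33 ± 0.27, edgeR adjusted p 0.00342). Pim1 averaged 956 CPM at week 2 and 381 CPM at week 0 in that arm. With scrambled dosing 0 of 17 passed, where 3.21% of all tested genes were called. Pim1 was at 0.72 ± 0.27 and Cish at 1.39 ± 0.50. DESeq2 called 2 of the 17, but it also called more of all genes than edgeR did, so the edgeR share does not apply to that count.

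The receptor chains of oncostatin M gave no called change. Osmr had no row in the table used here, Il6st, which encodes gp130, was at -0.38 ± 0.55 in the MIR29B arm and -0.76 ± 0.56 in the scrambled arm, and Lifr was at -1.14 ± 0.65 in the MIR29B arm and 0.55 ± 0.59 in the scrambled arm. Between arms at week 2, Lifr averaged 0.442 CPM in MIR29B and 2.48 CPM in scrambled libraries, a log2 difference of -2.42 ± 0.64 with an edgeR adjusted p of 0.156. Lif, which lies 16530 bases from Osm, was too low to be tested, with 4 counts over the MIR29B libraries and 16 over the scrambled libraries at week 2.

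Among the IL-10 pathway genes, 4 of 16 rose in the MIR29B arm (all genes: 3.45%), 0 fell, and the median was 0.52. Nfil3, a transcription factor gene induced by interleukin-10, rose by 2.04 ± 0.36 (edgeR adjusted p 0.000852) and averaged 10 CPM at week 2, against 2.34 CPM at week 0. Socs3, Bcl3 (1.37 ± 0.39) and Il1rn (1.26 ± 0.35), the gene of the interleukin-1 receptor antagonist, were the others. Socs3 is also in the OSM and gp130 list. With scrambled dosing 2 of 16 rose (all genes: 2.11%), Nfil3 by 1.60 ± 0.35 and the heme oxygenase gene Hmox1 by 1.32 ± 0.38.

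The receptor genes of interleukin-10 were counted in all groups. Over the 6 combinations of arm and week, Il10ra averaged 18 to 30.2 CPM and Il10rb 18.3 to 23.8 CPM. Il10ra was at 0.30 ± 0.24 in the MIR29B arm and 0.34 ± 0.24 in the scrambled arm for week 2 over week 0, and Il10rb at 0.38 ± 0.20 and 0.30 ± 0.20 in the same order of arms. Between arms at week 2 they were at -0.02 ± 0.24 and 0.09 ± 0.20. None passed the edgeR test. Il24, on the same chromosome 132390 bases away, had 2 counts in a MIR29B library and 4 in a scrambled library of week 0 and was not tested, and Il19 and Il20 had no row in the table used here. Mapkapk2, whose product acts on AU-rich cytokine mRNA, lies 28725 bases from Il10.

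The partners of EBI3 were low. Il27, the p28 chain of interleukin-27, had 8 counts over 6 MIR29B libraries and 22 over 6 scrambled libraries at week 2 and was not tested. Il12a, the p35 chain of interleukin-35, averaged 0.713 CPM in MIR29B and 0.668 CPM in scrambled libraries at week 2, and its week 2 over week 0 change was 0.41 ± 0.81 in the MIR29B arm and 0.58 ± 0.82 in the scrambled arm. Of the 8 tested genes of the family, 0 passed in the MIR29B arm (all genes: 5.44%), with a median of -0.15. In the scrambled arm 1 fell, the receptor gene Il27ra by 0.91 ± 0.26 (log2; edgeR adjusted p 0.0456), with a median of -0.89 over the list, where 1.1% of all genes fell.

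Among 15 genes that act on the decay of cytokine mRNA, 2 rose and 1 fell in the MIR29B arm, with a median of -0.07. The share of all genes that rose there was 3.45%. Zc3h12a, which encodes the endonuclease Regnase-1, rose by 2.04 ± 0.34 (edgeR adjusted p 0.000335), the kinase gene Mapkapk2 rose by 1.05 ± 0.25, and the Roquin-2 gene Rc3h2 had a log2 change of -0.89 ± 0.27, where 1.99% of all genes fell. Zc3h12a alone rose in the scrambled arm, by 1.34 ± 0.33 (edgeR adjusted p 0.0227), where 2.11% of all genes rose. At week 4 Zc3h12a stood 2.62 ± 0.34 above week 0 in the MIR29B arm and 1.57 ± 0.33 in the scrambled arm.

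Of the other leukocyte cytokines, 20 of 38 could be tested. In the MIR29B arm 2 rose, Il1b, the inflammasome-processed cytokine gene, by 2.03 ± 0.42 (edgeR adjusted p 0.00372) and Tgfb1 by 1.13 ± 0.24, with a median of 0.69. The share of all genes that rose in that arm was 3.45%. Among the same 20, 0 rose and 1 fell in the scrambled arm, where 2.11% of all genes rose and 1.1% fell. It was Cd40lg, the T cell ligand of CD40, with 20 counts over 6 libraries at week 2 against 88 at week 0. Its log2 change was -4.05 ± 1.15 (edgeR adjusted p 0.0458). The fall in summed counts is smaller than this fitted change, which rests on few counts. Il1a was at 0 in all scrambled libraries of week 0 and had 36 counts at week 2, and did not pass.

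At week 4 against week 0, 13 of the 91 list genes rose and 0 fell in the MIR29B arm, where 2.64% of all genes rose. They included Birc3 (1.31 ± 0.33) and Vegfa (2.27 ± 0.53), which were not called at week 2. Of the 91, Zc3h12a alone rose in the scrambled arm, where 0.36% of all genes rose.

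**Figure D3:**
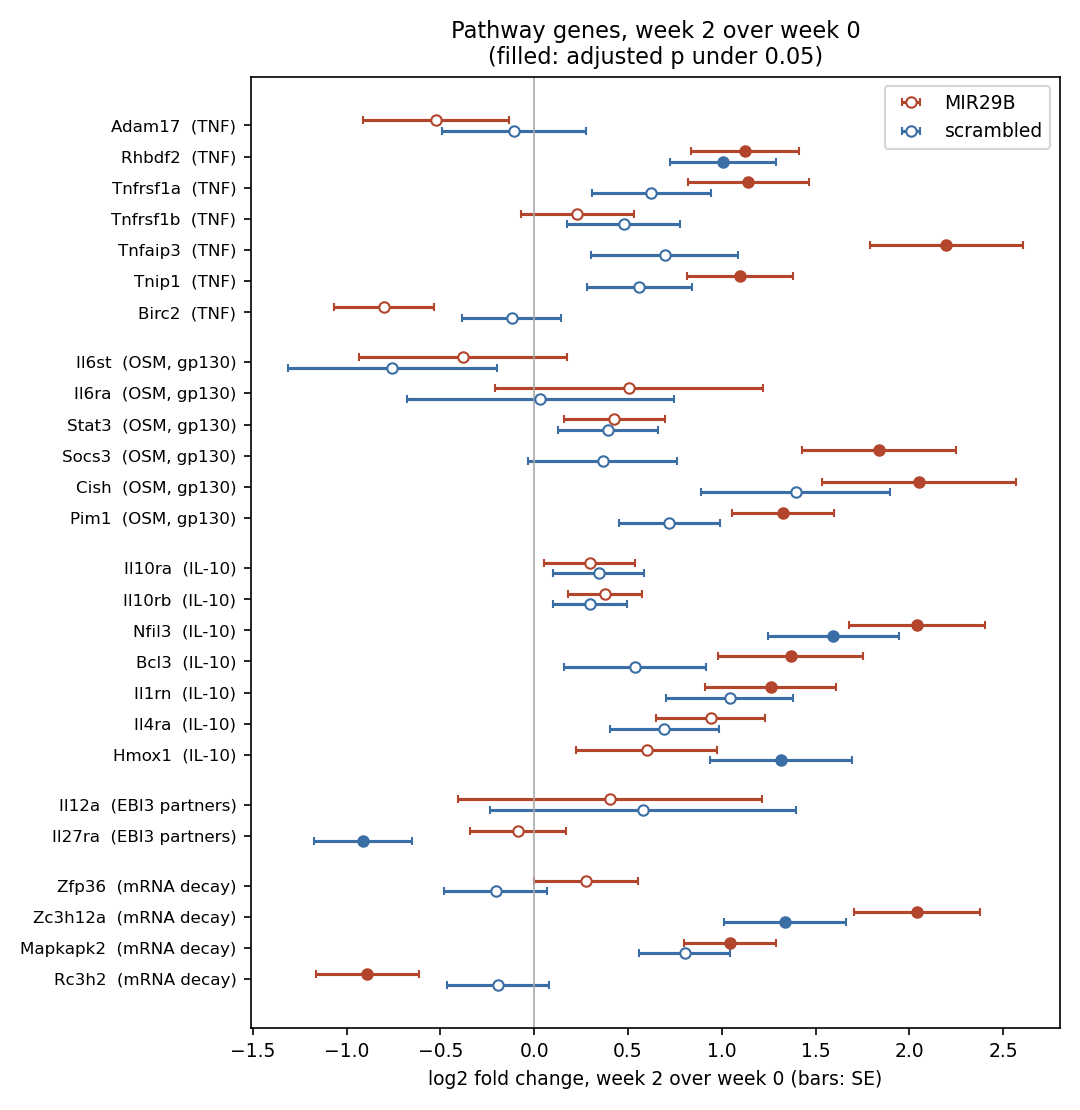
Log2 fold change of week 2 over week 0, with its SE, for receptor, feedback, partner and mRNA decay genes, in the MIR29B arm (red) and the scrambled arm (blue), with filled points where the edgeR adjusted p was under 0.05. Tnfaip3, Nfil3, Zc3h12a, Socs3 and Cish have the highest values in the MIR29B arm, near 2, and among the receptor genes the points are filled for Tnfrsf1a in the MIR29B arm and Il27ra in the scrambled arm.

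Some neutrophil markers rose at week 2 against week 0 in both arms. No neutrophil, monocyte, B cell or T cell marker was called between the arms at week 0, 2 or 4. The share called over all tested genes was 0.0% at each, so these arms cannot be read as alike in white cells. The summed level of 14 neutrophil markers had a median of 331 CPM (range 178 to 619) in MIR29B and 649 CPM (197 to 1260) in scrambled libraries at week 0. At week 2 it was 929 CPM (784 to 1720) in MIR29B and 2140 CPM (872 to 2970) in scrambled libraries, and at week 4 it was 826 CPM (556 to 1240) in MIR29B and 1040 CPM (432 to 1650) in scrambled libraries. Of 12 tested neutrophil markers, 6 rose at week 2 against week 0 in the MIR29B arm and 4 in the scrambled arm, where 3.45% and 2.11% of all tested genes rose. Between the arms, MIR29B over scrambled, their median log2 difference at week 2 was -0.80, with 1 of 12 above 0. It was -0.99 at week 0, with 0 of 12 above 0, and -0.67 at week 4, with 2 of 12 above 0.

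The summed level of 11 monocyte markers at week 2 had a median of 105 CPM (80.8 to 140) in MIR29B and 136 CPM (100 to 409) in scrambled libraries. B cell markers stood at 110 CPM (84 to 354) in MIR29B and 119 CPM (27.9 to 212) in scrambled libraries at week 2, and T cell markers at 86.7 CPM (67 to 98.3) and 80.8 CPM (41 to 102) in the same order. The median log2 difference between the arms at week 2 was -0.74 for monocyte markers, with 0 of 11 above 0. It was 0.45 for B cell markers, with 7 of 7 above 0, and 0.20 for T cell markers, with 9 of 9 above 0. By dose, the B cell value at week 2 was -0.02 at 2 mg/kg (3 of 7 above 0) and 0.73 at 3 mg/kg (7 of 7). The arms already differed in the same directions at week 0. The median there was -0.59 for monocyte markers (2 of 11 above 0) and 0.62 for B cell markers (7 of 7). For T cell markers the week 0 median was 0.07 (7 of 9). None of the monocyte, B cell or T cell markers was called for week 2 over week 0 in either arm. The part of these markers in the levels of Tnf, Osm, Il10 and Ebi3 was not tested.

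**Figure D4:**
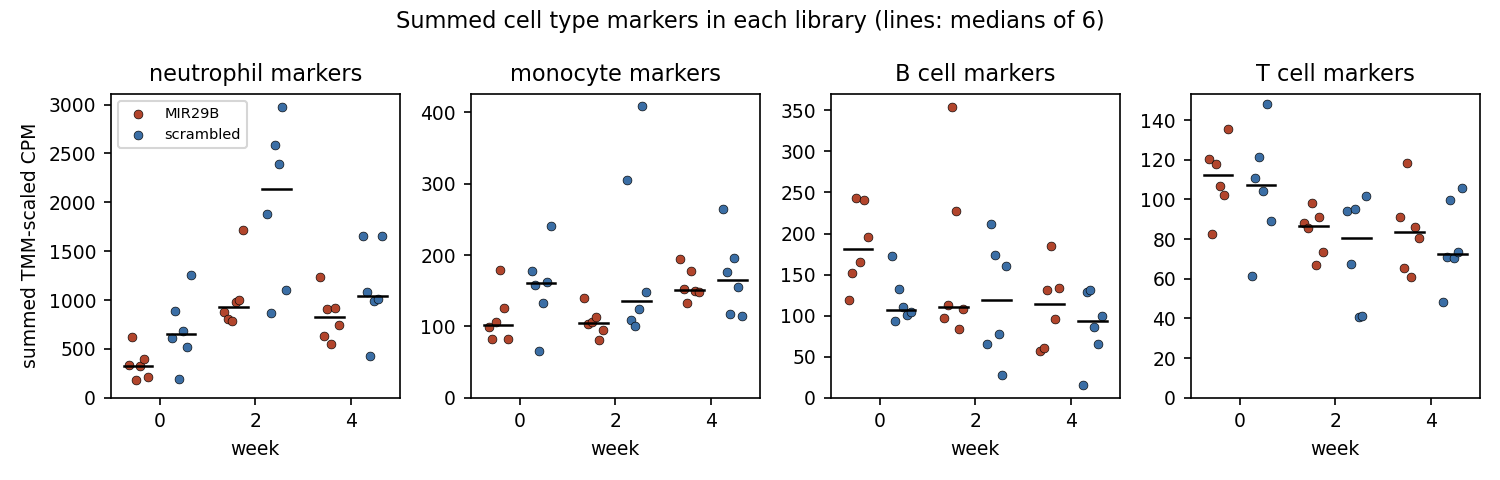
Summed TMM-scaled CPM of neutrophil, monocyte, B cell and T cell markers in each library by week, with MIR29B in red and scrambled in blue and lines at the medians of 6. Neutrophil markers have medians of 929 CPM in MIR29B and 2140 CPM in scrambled libraries at week 2, both above their week 0 medians of 331 and 649 CPM.

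The 4 genes did not share a profile over the 36 libraries. Pearson's r of log2(CPM + 0.5) was 0.51 between Il10 and Ebi3 and 0.51 after removal of the group means, 0.45 between Tnf and Ebi3 with 0.09 after removal, and -0.05 between Tnf and Osm. The points share groups, library depth and the mix of blood cells, and the values are a description.

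By the same measure over 11294 genes with an established symbol, the genes most like Tnf were Nfkbia (r = 0.83), which encodes the NF-kappa-B inhibitor I-kappa-B alpha, Marcksl1 (0.8), Borcs6 (0.77) and Surf4 (0.75). After removal of the group means these fell to 0.51, 0.55, 0.23 and 0.12. Among the genes most like Osm were Skap2 and Slc40a1, the iron exporter gene ferroportin (each 0.69), and Dusp1 (0.67), with 0.5, 0.6 and 0.56 after removal. The genes most like Il10 were the acute phase gene Saa2 (0.78), Plscr1 (0.75), Wnt6 (0.73) and Id2 (0.72), with 0.69, 0.58, 0.6 and 0.62 after removal. The genes most like Ebi3 were Tnfrsf1a, Adssl1, Mvp and Pofut2 (each 0.75), with 0.45, 0.37, 0.41 and 0.54 after removal.

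The libraries with much ribosomal RNA bear on the MIR29B arm at week 2. Without the 3 of them, replicate 1 was the only library of MIR29B at 2 mg/kg at week 2, and that dose rested on it. The log2 change of week 2 over week 0 in the MIR29B arm was then 3.64 for Tnf and 2.09 for Ebi3, close to the values with them. For Il10 it was 0.97, against 2.21 with them. The difference between arms at week 2 was then 0.31 for Tnf, -0.70 for Osm, -5.99 for Il10 and -0.29 for Ebi3. The remaining replicate 1 had 0 Il10 counts. Without these libraries fewer list genes were called at week 2 against week 0 in both arms, and fewer of all tested genes as well.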

How the data were processed

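The deposited table gives unnormalised read counts by the authors in 36 libraries, in 25856 rows of RefSeq transcripts. Per the labels, RNA was extracted with TRIzol and depleted of globin mRNA with GLOBINclear. The tools listed in the submitters' processing notes are HISAT2 2.0.5 and featureCounts 1.5.0-p3, and the build is GRCm38. The strand setting and the handling of reads shared by isoforms are not given in the sources used here. The table held 0 odd values. How the authors counted read mates is not given.

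Symbols were matched with a RefSeq table (25645 transcripts) or GENCODE (137), and 74 transcripts had none. The highest-total transcript stood for each of 16812 genes. The other Tnf transcript had 85.0% of the total of the one used. edgeR's filterByExpr (minimum count 10, total 15) kept 11953 genes. A quasi-likelihood model of 12 groups was fitted with TMM in edgeR 4.0.16 and R 4.3.3, with two-sided F tests and Benjamini-Hochberg adjustment within each contrast, called at 0.05. The common dispersion was 0.25. SE is the absolute log2 fold change over the square root of F. The labels do not say that libraries came from separate animals, so p-values measure the spread between these libraries.

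The members and lists were chosen with earlier results of these data known. Named genes are the 4 members, their receptors, partners and neighbours, the list genes with the smallest p at week 2 against week 0, and the 4 genes most correlated with each member, some of which are not reported here. Alternatives were DESeq2 1.42.0, RLE size factors, no filter, summed transcripts, halved counts, libraries left out and a replicate block. The fit was tested on simulated data.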

Additional observations from a re-analysis of the deposited data

Results flagged for a closer look

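Of 24 sets of 6 libraries (4 genes, each in an arm and week with doses pooled), 7 held a library whose gap to its nearest neighbour exceeded 0.625 of the whole range, where chance flags about 1 set in 20 of normally spread values. That rate does not apply to the Il10 sets, which hold mostly 0 or very low counts. For Il10 the highest library stood apart in both arms at week 0, in both arms at week 2 and in the MIR29B arm at week 4. At week 0 these were 0.0955 CPM in replicate 3 of MIR29B at 3 mg/kg and 0.665 CPM in replicate 2 of scrambled at 3 mg/kg. At week 2 they were 0.28 CPM in replicate 1 of MIR29B at 3 mg/kg and 6.55 CPM in replicate 1 of scrambled at 2 mg/kg. At week 4 it was 0.898 CPM in replicate 3 of MIR29B at 2 mg/kg. Most other Il10 values in the MIR29B arm were at or near 0, so a gap there can be 1 or 2 read pairs. For Osm, replicate 3 of scrambled at 2 mg/kg was the lowest scrambled library of week 0 at 4.43 CPM, and replicate 2 of scrambled at 2 mg/kg was the highest of week 4 at 20.6 CPM. The cause of these gaps was not tested.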

How the results depend on the processing

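The 28 tested fold changes of the members kept their direction and side of the threshold under RLE size factors, summed transcripts and halved counts. Under DESeq2 they kept their direction, and their side of the threshold where an adjusted p was given. DESeq2 gave none for Il10 and Ebi3 between arms at week 2. The replicate block moved none of those fitted with it, which leave out the difference between arms in week 4 over week 2. Without a filter Il10 between arms at week 2 passed (log2 -4.70, adjusted p 4.64e-05), and its untested week 4 over week 2 change in scrambled turned from -0.04 to 0.017. Without the libraries over 5% ribosomal RNA, Il10 in the MIR29B arm moved to 0.97 for week 2 over week 0 and 2.77 for week 4 over week 2. That fit kept only replicate 1 of MIR29B at 2 mg/kg at week 2. Leaving out single libraries turned 6 tested values: Ebi3 in the difference between arms in week 4 over week 2 (-0.34 to 0.11), Il10 there (-0.40 to 2.80), and 3 over 2 mg/kg at week 4 for Il10 in scrambled (-1.01 to 2.84), Osm in MIR29B (-0.58 to 0.14) and scrambled (-0.68 to 0.009) and Tnf in MIR29B (-0.34 to 0.18). Of the values with no test, it moved Il10 between arms at week 0 (-3.91 to -1.44), week 2 over week 0 in MIR29B (0.97 to 3.46) and scrambled (3.67 to 5.52), week 4 over week 0 in MIR29B (1.78 to 4.96) and scrambled (3.12 to 5.46), and week 4 over week 2 in MIR29B (-0.45 to 2.76) and scrambled (-1.15 to 0.56). It moved Tnf between arms at week 0 (-0.95 to 0.33), and in MIR29B at week 2 over week 0 (3.21 to 4.39) and week 4 over week 0 (2.11 to 3.31). Counts of genes called over the whole table varied most. Between arms they were 0 at each week with edgeR, 76 at week 2 and 14 at week 0 with DESeq2, and 93 at week 2, 3 at week 4 and 163 at week 0 without a filter. For week 2 over week 0, DESeq2 called 1095 genes in MIR29B and 948 in scrambled against edgeR's 650 and 384, no filter gave 902 in scrambled, and the ribosomal RNA libraries left out gave 164 in MIR29B and 144 in scrambled. For week 4 over week 2, DESeq2 called 42 in MIR29B and 38 in scrambled, and no filter 121 and 97, against 0 and 0. For week 4 over week 0, DESeq2 called 782 in MIR29B and 137 in scrambled, no filter 735 and 139, and the ribosomal RNA libraries left out 36 in scrambled, against 369 and 55. For 3 over 2 mg/kg, edgeR called 5 in scrambled at week 2 and 0 elsewhere, DESeq2 241 in scrambled and 5 in MIR29B at week 2, no filter 250 and 7 at week 2 and 4 and 2 at week 4, summed transcripts 3 and the ribosomal RNA libraries left out 2 in scrambled at week 2, and no filter called 2 for the difference between arms. The calls in the 6 lists in scrambled, 6 in the model used, were 12 with DESeq2, 3 with summed transcripts and 1 without the ribosomal RNA libraries, which gave 7 in MIR29B against 15. With 1 library left out, the calls ran between 9 and 17 in the lists in MIR29B and 0 and 10 in scrambled. Over all genes they ran between 0 and 15 for the arms at week 0, 0 and 11 at week 2, 0 and 6 for the doses of MIR29B at week 2, 0 and 118 for those of scrambled, 293 and 855 for week 2 over week 0 in MIR29B, 42 and 950 in scrambled, 196 and 544 for week 4 over week 0 in MIR29B, 28 and 72 in scrambled, 0 and 6 for week 4 over week 2 in MIR29B, and 0 and 109 in scrambled. Of 18 same-numbered pairs of libraries between arms 9 correlated over 0.1 (median 0.08), against 9 of 36 pairs with different numbers (median -0.05). Across weeks 14 of 36 same-numbered pairs did (median 0.04), against 22 of 72 with different numbers (median -0.03). Whether replicate numbers pair the libraries was not tested, and the model used holds no pairing. With the replicate number as a block 1 gene was called between arms at week 2 and 1 at week 0, and with number within arm and dose as a block 109 in scrambled for week 2 over week 0, 2 of them in the lists. The cause of these shifts was not tested. At 554 counts in all, the depth limits every statement on Il10.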
